A study of Mus musculus with 6 samples.

Results

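The nuclear genes for the subunits of the 5 oxidative phosphorylation complexes were followed in RNA-seq libraries of cultured mesenchymal stem cells (MSCs). The cells were grown out of bone marrow taken from mice aged 3 weeks. MSCs are stromal cells that can give rise to osteoblasts, chondrocytes and adipocytes. The series compared 3 libraries from mice with a conditional knock out of Mapk7 (CKO) with 3 libraries from wild-type mice (WT). Mapk7 encodes the MAP kinase ERK5, and the series title places its action in the balance of bone and fat. All 6 cultures were grown in α-MEM with serum. CKO libraries 1 to 3 and WT libraries 1 and 3 came from passage 5 and WT library 2 from passage 7, and WT libraries 1 and 2 carry a common animal label in their descriptions. The sources used here name neither the driver of the knock out nor the exons it removes. They do not say either whether libraries of a genotype are independent cultures, so the spread behind each p-value may be technical.

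Members were the listed genes whose symbols begin as those of complex I (Nduf followed by a, b, c, s or v and a digit), complex II (Sdha to Sdhd), complex III (Uqcr), complex IV (Cox4 to Cox8) or complex V (Atp5) subunits. They were 86 of the 15063 genes listed: 39 of complex I, 4 of complex II, 8 of complex III, 18 of complex IV and 17 of complex V. Ndufa4 and its paralogue Ndufa4l2 were placed with complex IV, of which NDUFA4 is a component. Of the 86, 83 reached an RPKM (reads of a gene scaled by its length and by the reads of the library) of 1 in 3 or more libraries and were tested among 11085 genes. Cox8b, Ndufb4b and Ndufb4c were below that level. Nuclear subunits are only part of the chain: 13 further subunits are encoded in mitochondrial DNA, and 0 of these were among the genes listed.

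Complexes I to IV pass electrons from NADH and succinate to oxygen. Complexes I, III and IV pump protons across the inner mitochondrial membrane, and complex V, the ATP synthase, uses the returning protons to make ATP. Undifferentiated MSCs are known to rely largely on glycolysis, and oxidative phosphorylation increases as they differentiate into bone or fat cells. Transcription of many nuclear subunit genes is driven by NRF1 and by the ETS family factor GABP (also called NRF-2), with the PGC-1 coactivators.

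The libraries held 17351907 to 20689481 reads, worked out from the values, with a median of 998 to 1854 reads per tested member. Mapk7 was at 5.59, 3.84 and 5.45 RPKM in CKO libraries 1 to 3, against 7.12, 6.76 and 9.07 RPKM in WT libraries 1 to 3. Its values did not overlap, but it did not pass the test (log2 difference −0.54, SE 0.23, limma adjusted p = 0.505). Of 11 stromal markers, all were listed, and their summed level was 7021, 3963 and 3251 RPKM in the CKO libraries and 6683, 5659 and 5919 RPKM in the WT libraries. Collagen transcripts were abundant and made up most of that sum in every library (Col1a1 at 1126 to 2959 RPKM in CKO and 2043 to 2635 RPKM in WT). Of the 10 tested stromal markers, 8 lay below 0, with a median log2 difference of −0.82. Of these 10, 4 were lower in CKO without overlap (Pdgfrb, Cxcl12, Ly6a and Pdgfra), where 9.18% of all genes were, though 0 passed the adjusted threshold. Macrophage transcripts were present in all 6 libraries. Of 22 listed macrophage markers, the summed level was 819, 463 and 3796 RPKM in the CKO libraries and 1180.0, 891 and 2506 RPKM in the WT libraries. Lyz2 alone was at 529, 321 and 2948 RPKM in CKO and 827.5, 686 and 1590 RPKM in WT. By the median deviation of the 20 tested markers from their 6-library medians, WT library 3 was highest (1.33), followed by CKO library 3 (0.822). WT library 2 stood apart, with correlations across genes of 0.795 to 0.920 to the other libraries, and 20 cell cycle genes summed to 67.2 RPKM there, against 297 to 677 RPKM in the other 5. The closest pair was CKO library 1 with WT library 1 (0.972). The Y-linked gene Ddx3y was at 15.3, 6.46 and 16.02 RPKM in CKO and 0.0357, 19.1 and 11.8 RPKM in WT, with 3 reads in WT library 1 and 1915 in WT library 2, which goes against their common animal label. In bulk samples, fewer cells of a type and less RNA per cell cannot be told apart.

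The subunit genes were expressed at moderate to high levels and the genotypes did not separate. The largest level was that of Atp5b, the catalytic β subunit of ATP synthase, at a mean of 441.5 RPKM over the 6 libraries, followed by the cytochrome c oxidase genes Cox4i1 (328 RPKM) and Cox6b1 (301 RPKM). Summed over all members, the level was 6662, 12500 and 6967 RPKM in CKO libraries 1 to 3 and 7031, 7619 and 7897 RPKM in WT libraries 1 to 3. CKO library 2 lay above all WT libraries, and CKO libraries 1 and 3 lay below all of them. The means were 8710 ± 3287 RPKM in CKO and 7516 ± 442 RPKM in WT (SD, n = 3 each).

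None of the 83 tested members passed the test at an adjusted p under 0.05 (limma on log2(RPKM + 1), Benjamini-Hochberg over all genes), where 1 of 11085 genes did (0.00902%). At an unadjusted p under 0.05, 0 members were higher in CKO, where 3.36% of all genes were, and 2 were lower, Cox4i2 and Ndufa4l2, where 6.39% of all genes were. The CKO values lay all above the WT values for 1 member, Atp5c1 (7.51% of all genes), and all below them for 1, Sdha (9.18% of all genes). The shares of members without overlap were thus below the background in both directions. With 3 libraries a group, an exact permutation test of 1 gene cannot go below p = 0.1.

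Signs and medians leaned above 0, and that lean rested on CKO library 2. Of the 83 members, 67 had a log2 difference above 0 and 16 below, with a median of 0.14. Over all tested genes 5950 were above 0 and 5135 below, with a median of 0.034. By complex the median log2 difference was 0.13 for complex I, −0.03 for complex II, 0.13 for complex III, 0.24 for complex IV and 0.29 for complex V. Without CKO library 2, 26 of the 83 were above 0 and the median was −0.10, with a median of −0.15 for complex I and −0.07 for complex V. In that comparison 1 member lay without overlap above WT, where 17.6% of all genes did, and 20 lay below WT, or 24.1% of members, where 16.2% of all genes did.

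**Figure D1:**
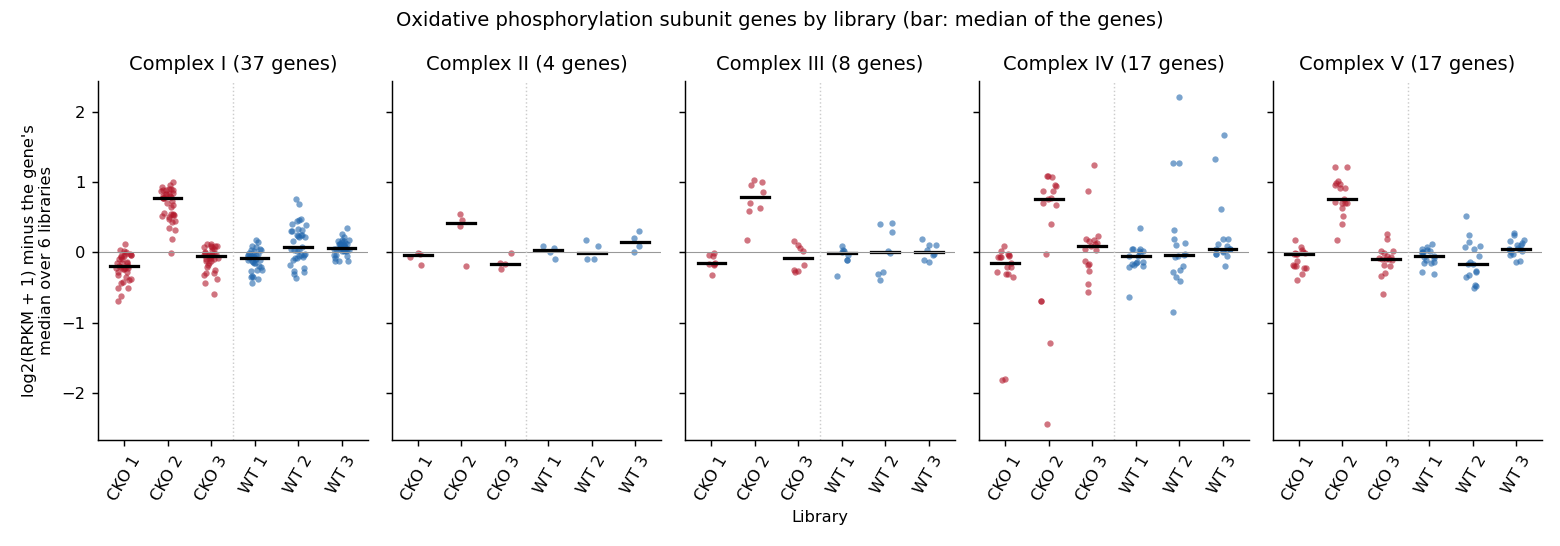
Level of each tested subunit gene in each library as log2(RPKM + 1) minus that gene's median over the 6 libraries, in 1 panel per complex with CKO libraries left of WT libraries; points are genes and bars are their medians. In CKO library 2 the median over all members is 0.728, while in the other 5 libraries it lies between −0.153 and 0.055.

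CKO library 2 held the highest value of the 6 libraries in 75 of 83 members, or 90.4%, against 22.9% of all tested genes. It lay above all WT libraries in 75 members as well (90.4%), where 30.1% of all tested genes did. Relative to the median of the other 5 libraries, the members stood at a median ratio of 1.76 in it (range 0.0568 to 2.43), and all tested genes at 0.943. The median ratio was 1.76 for complex I, 1.41 for complex II, 1.84 for complex III, 1.76 for complex IV and 1.87 for complex V. The 8 exceptions were highest elsewhere: Sdha, Cox4i2, Cox6b2 and Ndufa1 in WT library 2, Ndufs1 in WT library 1, Ndufa4l2 in WT library 3, and Cox6a2 and Cox7a1 in CKO library 3. The other CKO libraries did not share this level. In CKO library 1, 43 of 83 members (51.8%) lay below all WT libraries and 3 above, where 27.3% and 31.0% of all genes did. In CKO library 3, 26 members (31.3%) lay below all WT libraries and 17 (20.5%) above, where 26.2% and 33.2% of all genes did. The level of CKO library 2 thus had no match in a second library of its genotype.

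Gene length moved with the level in CKO library 2. Subunit genes are short, with a median length of 754 bases (320 to 3153), against 3438 bases for the other tested genes, as recovered from the values. In CKO library 2 the other genes of up to 500 bases had a median deviation from their own 6-library median of 0.715 on the log2 scale, falling through 0.313 at 1000 to 1500 bases to −0.273 above 4000 bases. The members lay above the other genes of like length: 0.944 up to 500 bases, 0.590 at 1000 to 1500 bases and 0.263 at 2000 to 3000 bases, where the other genes had 0.051. The RPKM values of CKO library 2 summed to 459683, against 353575 to 390593 in the other 5 libraries. When the length trend of the other genes was removed in each library, the median deviation of the members was 0.166 in CKO library 2 and 0.170 in WT library 2, and −0.045 to −0.025 in the other 4. The number of members above 0 was then 38 of 83 and the median log2 difference −0.03, with 4 members above WT without overlap, where 10.5% of all genes were, and 0 below, where 10.01% were. This setting was chosen after seeing the data.

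**Figure D2:**
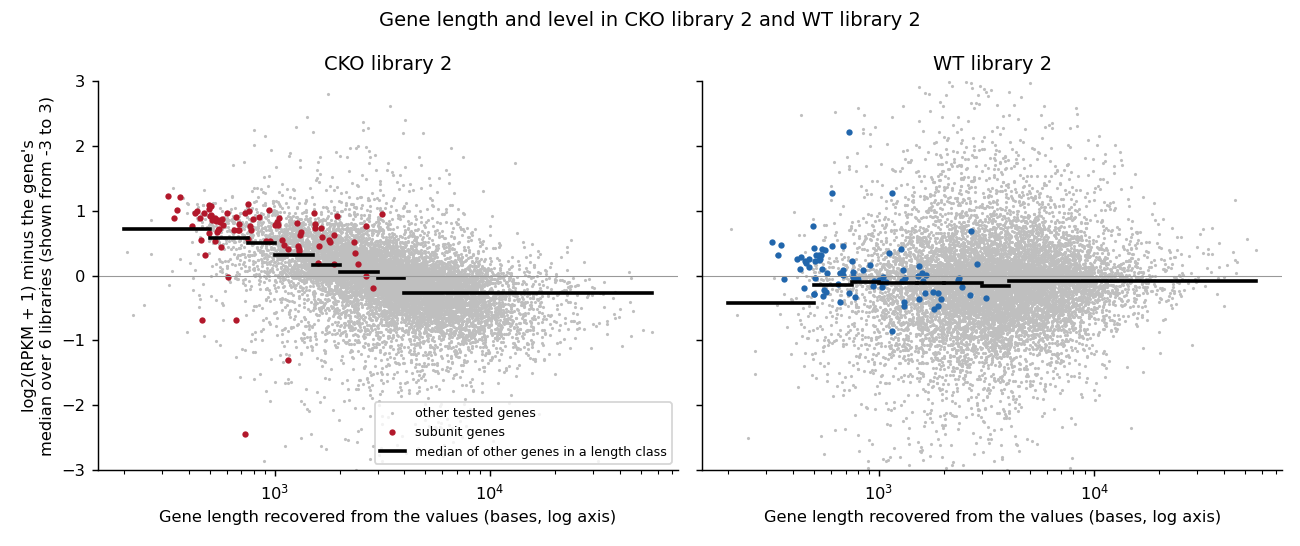
Gene length in bases (log axis) against the deviation of log2(RPKM + 1) from each gene's 6-library median, in CKO library 2 (left) and WT library 2 (right); coloured points are subunit genes, grey points are other tested genes and black steps are the medians of the other genes in each length class. In CKO library 2 the black steps run between 0.715 for the shortest class and −0.273 for the longest, and most subunit genes lie above them.

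In WT library 2, the passage 7 culture, the members of complexes I and III split by class. They also did so in CKO library 2 at passage 5. These classes differ in gene length: the median was 677 bases for accessory and 1608 for core subunits of complex I. In complex III it was 546 bases for small and 1656 for core subunits. Members of 500 to 750 bases stood at 0.226 in WT library 2 and those of 1500 to 2000 bases at −0.266. In CKO library 2 the other genes of these lengths stood at 0.577 and 0.162. Class and length were not separated here. The 29 accessory subunits of complex I had a median deviation of 0.226 in WT library 2, and the 7 core subunits one of −0.085. In CKO library 2 they stood at 0.794 and 0.470, and in CKO library 1 at −0.222 and −0.054. The 5 small subunits of complex III stood at 0.285 in WT library 2 and the 3 core subunits at −0.272, against 0.968 and 0.597 in CKO library 2. In complex V, the 5 subunits of the catalytic F1 head stood at −0.356 in WT library 2. The c ring stood at −0.162 there, the stalk at −0.123 and the membrane subunits at 0.052. The 10 ubiquitous subunits of complex IV stood at −0.038 there. Short genes that were no members stood lower than short members in WT library 2: those of up to 500 bases had a median of −0.428, and members of that length 0.237. With 1 library at passage 7, passage and library cannot be told apart.

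Complex I, the NADH dehydrogenase, held 37 tested members, of which 29 lay above 0 and 8 below, and 0 passed. Their summed level was 1682, 3227 and 1833 RPKM in the CKO libraries and 1808, 2221 and 2056 RPKM in the WT libraries. CKO library 1 was below every WT library, CKO library 2 above every one and CKO library 3 inside the WT range. Ndufv1, the subunit that binds NADH, was at 33.9, 50.2 and 35.4 RPKM in CKO and 37.5, 34.4 and 39.6 RPKM in WT. Ndufs1, the largest core subunit and a carrier of iron-sulfur clusters, was at 32.1, 29.4 and 29.6 RPKM in CKO and 33.0, 23.8 and 27.2 RPKM in WT. Ndufs1 was the only complex I core gene for which CKO library 2 was not the highest. Its gene length of 2654 bases is the longest of the core genes.

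The 3 complex I genes with the largest differences were accessory subunits, and all of them had their highest value in CKO library 2. Ndufs4, whose loss is used as a mouse model of Leigh syndrome, was at 23.1, 45.4 and 27.3 RPKM in CKO and 24.0, 19.7 and 28.9 RPKM in WT (log2 difference 0.34, SE 0.30, limma adjusted p = 0.716). Ndufs6 was at 44.6, 95.9 and 52.3 RPKM in CKO and 41.7, 58.3 and 46.9 RPKM in WT (0.32, SE 0.33, adjusted p = 0.754). Ndufb6 was at 37.9, 74.9 and 41.2 RPKM in CKO and 38.4, 40.9 and 38.3 RPKM in WT (0.31, SE 0.29, adjusted p = 0.735). Outside CKO library 2 each of the 3 genes had CKO values close to or within the WT range. Without CKO library 2 the log2 difference of Ndufs6 was −0.006. The gene copies Ndufb4b, Ndufb4c and Ndufs6b, which resemble Ndufb4 and Ndufs6, were low, with means over the 6 libraries of 0.606, 0.690 and 2.27 RPKM, and their reads may be shared with the longer-known genes.

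Complex II, succinate dehydrogenase, links the chain to the tricarboxylic acid cycle and is the only complex with no subunit encoded in mitochondria. Its catalytic flavoprotein gene Sdha was at 64.8, 56.7 and 54.9 RPKM in CKO and 69.1, 73.3 and 65.2 RPKM in WT. Every CKO library was below every WT library, by a narrow gap between 64.8 RPKM in CKO library 1 and 65.2 RPKM in WT library 3. The log2 difference was −0.23 (SE 0.21, limma adjusted p = 0.724). After median centring, after quantile normalization and with the length trend removed, the groups overlapped. The other 3 genes differed from Sdha in CKO library 2, where each had its highest value. Outside that library Sdhc followed Sdha, with CKO libraries 1 and 3 below every WT library. Without CKO library 2 the log2 difference was −0.21 for Sdha, −0.27 for Sdhc and −0.015 for Sdhb, and the median of the complex was −0.19.

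Sdhb, the iron-sulfur subunit, was at 63.9, 94.9 and 64.1 RPKM in CKO and 65.0, 60.5 and 68.7 RPKM in WT (log2 difference 0.17, SE 0.25, adjusted p = 0.832). The membrane anchor Sdhc was at 67.7, 100.6 and 69.2 RPKM in CKO and 72.5, 82.0 and 95.2 RPKM in WT (−0.09, SE 0.26, adjusted p = 0.926). The other anchor, Sdhd, was at 60.04, 86.4 and 55.7 RPKM in CKO and 65.5, 58.8 and 72.3 RPKM in WT. The 4 subunits occur in equal number in the assembled enzyme, and their transcripts had different orders over these libraries. Sdha is the longest of the 4 genes, at 2859 bases.

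The promoters of the members are shown for 3 genes: Sdha and Atp5c1, the 2 members whose groups did not overlap, and Sdhd, a partner of Sdha with another order over the libraries. Each window runs from 250 bases before the annotated start to 50 after it, from RefSeq on GRCm38.p6 and not on the mm9 build of the values. Capitals mark the NRF1 core TGCGCA, which reads the same on both strands, and the ETS core CCGGAAG, or CTTCCGG on the other strand. The NRF1 core cannot overlap the ETS core, while the strand forms of the ETS core can share letters.
Sdha, chr13:74350191-74350490, minus strand: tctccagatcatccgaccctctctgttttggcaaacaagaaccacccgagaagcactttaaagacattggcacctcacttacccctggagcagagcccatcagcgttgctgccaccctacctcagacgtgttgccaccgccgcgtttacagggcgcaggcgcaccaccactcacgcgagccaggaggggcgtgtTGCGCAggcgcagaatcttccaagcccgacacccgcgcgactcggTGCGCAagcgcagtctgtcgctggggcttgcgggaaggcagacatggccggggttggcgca
Sdhd, chr9:50603800-50604099, minus strand: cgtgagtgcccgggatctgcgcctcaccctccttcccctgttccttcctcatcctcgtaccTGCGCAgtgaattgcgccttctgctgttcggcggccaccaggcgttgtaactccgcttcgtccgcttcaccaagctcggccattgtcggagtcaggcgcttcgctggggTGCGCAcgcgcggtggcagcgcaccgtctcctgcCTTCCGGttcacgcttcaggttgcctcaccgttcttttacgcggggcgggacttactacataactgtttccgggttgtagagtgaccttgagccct
Atp5c1, chr2:10080461-10080760, minus strand: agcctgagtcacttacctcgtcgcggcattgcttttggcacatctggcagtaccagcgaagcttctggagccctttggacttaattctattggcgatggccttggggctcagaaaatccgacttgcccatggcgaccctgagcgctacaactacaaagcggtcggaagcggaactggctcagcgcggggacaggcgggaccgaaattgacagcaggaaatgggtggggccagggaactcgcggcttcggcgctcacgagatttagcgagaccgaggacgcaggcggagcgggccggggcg
Sdha and Sdhd both hold 2 NRF1 cores, Sdhd holds 1 ETS core as well, and the Atp5c1 window holds 0 of either. Of the 86 members, 69 matched a promoter in the RefSeq table. The NRF1 core was in 18 of them (26.1%) and in 8.06% of all 27025 promoters, and the ETS core was in 16 (23.2%) and in 9.12% of all promoters. A match describes these letters only. The part of these letters in the values of the libraries was not tested.

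Complex III, which passes electrons from ubiquinol to cytochrome c, had 8 of 8 members above 0 and 0 past the test. CKO library 2 was above all WT libraries in 8 of 8, and without it the median log2 difference of the complex was −0.04. Uqcrfs1, the Rieske iron-sulfur protein, was at 40.1, 70.0 and 50.2 RPKM in CKO and 46.0, 33.8 and 43.8 RPKM in WT (log2 difference 0.34, SE 0.27, limma adjusted p = 0.694). Uqcrq, a small ubiquinone-binding subunit, was at 59.8, 121 and 66.7 RPKM in CKO and 62.1, 61.0 and 57.0 RPKM in WT (0.38, SE 0.31, adjusted p = 0.695). In both genes CKO libraries 2 and 3 were above all WT libraries and CKO library 1 was within the WT range. Uqcrb, another small subunit, was at 92.0, 170.4 and 108 RPKM in CKO and 101, 83.3 and 106 RPKM in WT (0.31, SE 0.30, adjusted p = 0.744). Uqcrc1, a core subunit, was at 70.2, 108 and 59.1 RPKM in CKO and 75.5, 71.6 and 64.7 RPKM in WT.

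Complex IV, cytochrome c oxidase, reduces oxygen to water, and several of its subunits have paralogues with restricted expression. The 10 ubiquitous subunits had a median deviation of 0.877 in CKO library 2, −0.112 in CKO library 1 and 0.041 in CKO library 3, with −0.049, −0.038 and 0.038 in the WT libraries. Cox6c was at 154, 339 and 180.2 RPKM in CKO and 138.5, 157 and 164 RPKM in WT (log2 difference 0.46, SE 0.35, limma adjusted p = 0.682). Cox5a was at 18.2, 36.5 and 19.8 RPKM in CKO and 18.7, 14.3 and 18.2 RPKM in WT, so that CKO libraries 2 and 3 were above WT and CKO library 1 within it. With a length of 3153 bases, Cox5a is the longest member, and it had a ratio of 2.01 in CKO library 2 over the median of the other 5. Cox5b, a zinc-binding subunit, was at 125, 237 and 113 RPKM in CKO and 133, 108 and 134 RPKM in WT.

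The lowest differences among all members belonged to 2 complex IV paralogues, Cox4i2 and Ndufa4l2, both known as genes induced by low oxygen and both high in pericytes. Cox4i2, the alternative form of the regulatory subunit 4, was at 1.24, 0.427 and 7.52 RPKM in CKO and 6.10, 35.0 and 18.5 RPKM in WT, from 17, 6 and 97 reads in CKO and 77, 527 and 234 reads in WT. CKO libraries 1 and 2 were below every WT library, while CKO library 3 was above WT library 1. The log2 difference was −2.51 (SE 0.80), with an adjusted p of 0.376 in limma. The main form Cox4i1 was at 261, 514 and 311 RPKM in CKO and 268, 292 and 322 RPKM in WT. Cox4i2 made up 0.471, 0.0830 and 2.36% of the summed RPKM of the pair in CKO and 2.23, 10.7 and 5.44% in WT.

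Ndufa4l2 was at 21.3, 31.1 and 88.9 RPKM in CKO and 68.3, 189 and 250.5 RPKM in WT. CKO libraries 1 and 2 were again below every WT library, and CKO library 3 was above WT library 1. The log2 difference was −1.90 (SE 0.65), with an adjusted p of 0.410 in limma. Ndufa4 itself was at 168, 335 and 130.5 RPKM in CKO and 159, 129 and 155 RPKM in WT. Ndufa4l2 held 11.3, 8.49 and 40.5% of the summed RPKM of the pair in CKO and 30.1, 59.5 and 61.8% in WT. Ndufa4l2 was thus the larger transcript of the pair in WT libraries 2 and 3 and in 0 of the 3 CKO libraries. Both paralogues kept a difference below 0 under the 17 other settings run, with −3.36 to −1.43 for Cox4i2 and −2.48 to −1.47 for Ndufa4l2. With any of CKO library 1, CKO library 2, WT library 2 or WT library 3 left out, neither had an unadjusted p under 0.05.

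**Figure D3:**
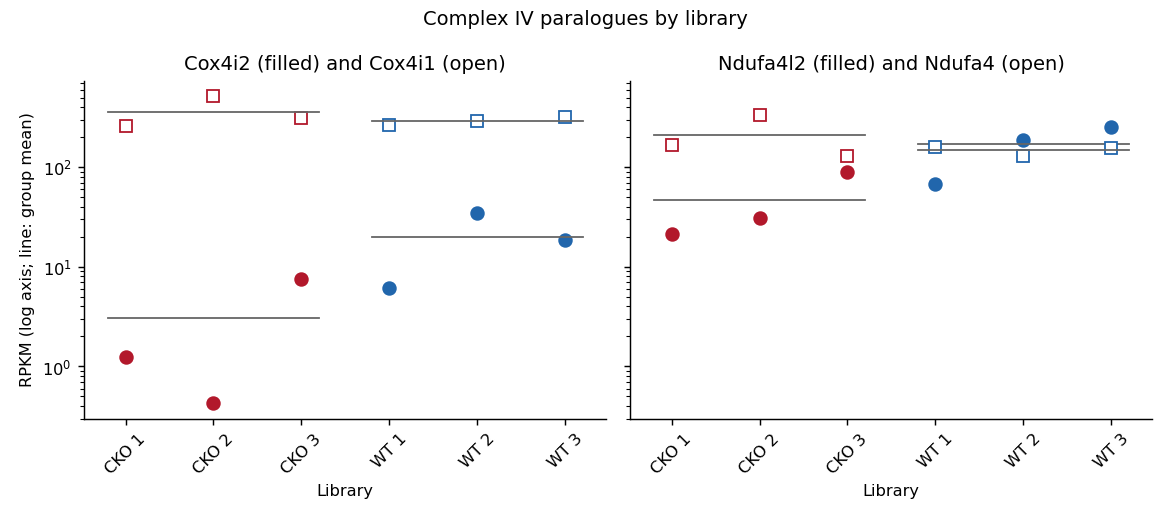
RPKM of Cox4i2 and Cox4i1 (left) and of Ndufa4l2 and Ndufa4 (right) in each library on a log axis, CKO libraries left of WT libraries; filled circles are the low-oxygen paralogue, open squares the main form and lines the mean of each genotype. Cox4i2 lies at 0.427 to 7.52 RPKM in CKO and 6.10 to 35.0 RPKM in WT, with overlap between CKO library 3 and WT library 1.

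Markers of low oxygen and of pericytes, chosen after seeing the values, went in both directions. The 10 genes of a low-oxygen list had a median deviation of 0.037, −0.098 and 1.31 in the CKO libraries and −0.166, −0.305 and 0.213 in the WT libraries, so CKO library 3 was highest. Their median log2 difference was 0.42, with 8 above 0 and 2 below, and 0 passed the adjusted threshold. Vegfa was at 56.5, 61.2 and 156 RPKM in CKO and 43.2, 15.4 and 31.0 RPKM in WT. It was the only 1 of the 10 that was higher without overlap, where 7.51% of all genes were, and 0 were lower without overlap. Egln3 and Slc2a1 also lay above 0, with their highest values in CKO library 3 (42.3 and 276 RPKM). The 2 genes below 0 were Ndrg1, at 21.2, 12.6 and 49.4 RPKM in CKO and 22.8, 35.0 and 46.6 RPKM in WT, and P4ha1, at 117, 108 and 144 RPKM in CKO and 118, 199 and 152 RPKM in WT. In both, as in Cox4i2 and Ndufa4l2, CKO libraries 1 and 2 were below every WT library, in P4ha1 narrowly (117 RPKM in CKO library 1 and 118 RPKM in WT library 1). CKO library 3 was above WT library 1 only in P4ha1, Cox4i2 and Ndufa4l2, but above every WT library in Ndrg1. Of 8 pericyte markers, 6 were listed and 4 tested, with 2 above 0 and 2 below. Cspg4, the NG2 proteoglycan gene, was at 1.23, 3.17 and 0.378 RPKM in CKO and 17.2, 7.62 and 11.6 RPKM in WT, lower in every CKO library than in any WT library. Pdgfrb, a receptor gene of pericytes and other stromal cells that was placed on the stromal list, was also lower without overlap, at 48.5, 36.9 and 26.1 RPKM in CKO and 85.8, 66.0 and 60.2 RPKM in WT. Mcam, the CD146 gene, was at 17.5, 69.2 and 22.4 RPKM in CKO and 6.10, 1.20 and 3.17 RPKM in WT, higher without overlap. Of the 4 tested markers of the pericyte list, 1 was thus higher and 1 lower without overlap, where 7.51% and 9.18% of all genes were. The summed level of the list, most of it Mcam in the CKO libraries, was 23.4, 75.7 and 28.1 RPKM in CKO and 27.2, 11.8 and 17.5 RPKM in WT, and the pericyte channel genes Kcnj8 and Abcc9 were at 0.311 RPKM or less in each library. The part of cell makeup in the paralogue values was not tested.

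The heart and muscle forms of complex IV subunits were low in both genotypes. Cox6a2 was at 3.37, 1.804 and 9.74 RPKM in CKO and 3.67, 2.42 and 5.95 RPKM in WT, beside Cox6a1 at 199.9, 369.9 and 155 RPKM in CKO and 239, 290 and 223 RPKM in WT. Cox7a1 was at 0.689, 0.337 and 2.94 RPKM in CKO and 1.75, 1.47 and 0.877 RPKM in WT, the lowest value resting on 3 reads, beside Cox7a2 at 57.3 to 150.0 RPKM in CKO and 62.5 to 70.5 RPKM in WT. Neither muscle form separated the genotypes, and both were highest in CKO library 3. Cox8b, the muscle and brown fat form, was at 0.436, 0 and 0.155 RPKM in CKO and 1.91, 0 and 0.476 RPKM in WT, where a count of 0 allows up to 3 reads, while Cox8a was at 176 to 320.3 RPKM in CKO and 191 to 212 RPKM in WT. Of 10 skeletal muscle markers, all were listed, and their summed level was 34.5, 67.6 and 41.5 RPKM in CKO and 52.3, 2.26 and 42.4 RPKM in WT. In CKO library 2, 63.9 RPKM of that sum was Acta1, while Myh4, Ckm and Tnnc2 were at 0 and the median deviation of the 6 tested markers was −0.981. Ckm, the muscle creatine kinase gene, was at 4.55, 0 and 0.119 RPKM in CKO and 6.76, 0 and 3.09 RPKM in WT, and Myog was at 0 in 5 of the 6 libraries.

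Among the other paralogues, Cox6b2, a form known from testis, was at 5.05, 4.86 and 3.35 RPKM in CKO and 2.85, 13.4 and 5.80 RPKM in WT, and it made up 0.923 to 2.30% of its pair with Cox6b1 in CKO and 1.16 to 4.37% in WT. Cox7a2l, which helps to join complexes III and IV into supercomplexes, was at 96.9, 160.3 and 137 RPKM in CKO and 106, 66.5 and 138 RPKM in WT. WT library 2 held its lowest value. In both genes the CKO values lay at least partly within the WT range.

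Complex V had 16 of its 17 members above 0 and 1 below, and CKO library 2 was above all WT libraries in 17 of 17. Atp5c1, the central γ subunit that turns inside the catalytic head, was at 96.1, 137 and 96.9 RPKM in CKO and 95.2, 66.9 and 94.6 RPKM in WT. All CKO values were above all WT values, with 96.1 RPKM in CKO library 1 next to 95.2 RPKM in WT library 1. The log2 difference was 0.36 (SE 0.28, limma adjusted p = 0.686), and it was 0.19 with CKO library 2 left out, 0.19 with WT library 2 left out and 0.02 with both left out. CKO library 2 held its highest value and WT library 2 its lowest.

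The catalytic subunits had no such separation. Atp5b was at 446, 658 and 403 RPKM in CKO and 449.5, 305 and 386 RPKM in WT (log2 difference 0.39, SE 0.33, limma adjusted p = 0.713). Atp5a1, the α subunit, was at 253, 280.5 and 196 RPKM in CKO and 255, 220.0 and 242 RPKM in WT. Among the membrane subunits, Atp5md, which encodes a small membrane protein of the synthase, was at 136, 364 and 178 RPKM in CKO and 140.3, 149.8 and 162 RPKM in WT (0.45, SE 0.39, adjusted p = 0.713). Atp5mpl, the small proteolipid gene, was at 49.5, 115 and 69.5 RPKM in CKO and 56.0, 48.1 and 60.2 RPKM in WT (0.42, SE 0.33, adjusted p = 0.690). In both, CKO libraries 2 and 3 were above all WT libraries and CKO library 1 was not.

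The c ring of ATP synthase is encoded by 3 genes for the same mature protein. Atp5g1 was at 61.9, 105 and 44.7 RPKM in CKO and 59.6, 45.04 and 50.3 RPKM in WT. Atp5g2 was at 129.5, 215 and 123 RPKM in CKO and 134, 120.0 and 159 RPKM in WT, and Atp5g3 at 112, 230 and 98.4 RPKM in CKO and 114, 101 and 122 RPKM in WT. In all 3 genes CKO library 2 was highest, and CKO library 3 was below every WT library in Atp5g1 and Atp5g3 and inside the WT range in Atp5g2. Reads of these and other members with near-identical copies may be shared between genes, since how reads were counted is not given.

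**Figure D4:**
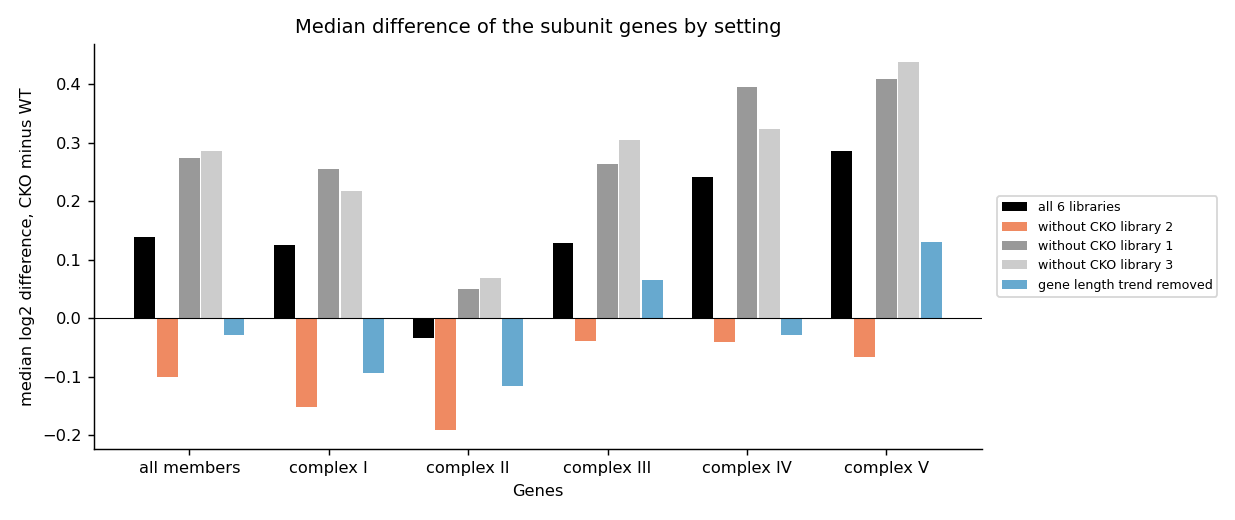
Median log2 difference, CKO minus WT, of all tested subunit genes and of each complex, with all 6 libraries, without each CKO library in turn and with the gene length trend removed. Over all members the bar is at 0.14 with all libraries, at −0.10 without CKO library 2 and at −0.03 with the length trend removed.

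Genes that act with the subunits were described from lists. Of 14 complex I assembly factors, 7 lay above 0 and 7 below, with a median log2 difference of 0.08 and a median deviation of 0.225 in CKO library 2, below that of the subunits (0.772). Of 27 tested assembly factors of complexes II to V, 14 lay above 0 and 13 below, with a median of 0.01. Tmem70, an ATP synthase assembly factor, was at 27.3, 43.4 and 44.7 RPKM in CKO and 22.5, 13.5 and 21.2 RPKM in WT, without overlap. Of these 27, 3 were higher in CKO without overlap, where 7.51% of all genes were. Of 10 tested regulators of mitochondrial biogenesis, 8 lay above 0 and 2 below, and their median deviation in CKO library 2 was −0.036. Gabpb1, which encodes a GABP subunit, was at 5.84, 5.25 and 5.95 RPKM in CKO and 5.11, 2.48 and 4.23 RPKM in WT. Tfam, a mitochondrial DNA transcription and packaging factor gene, was at 7.64, 8.40 and 7.69 RPKM in CKO and 6.88, 5.21 and 7.30 RPKM in WT. Both, as 2 of the 10 tested, were higher in CKO without overlap, where 7.51% of all genes were. Their lowest values were in WT library 2. Nrf1 was at 2.11, 1.60 and 2.01 RPKM in CKO and 2.07, 1.63 and 1.70 RPKM in WT (a gene picked with its values in view), and Ppargc1a and Ppargc1b, which encode PGC-1 coactivators, were at 0.172 RPKM or less in each library.

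Other mitochondrial lists held CKO library 2 above the other libraries to different degrees. The 78 mitochondrial ribosomal protein genes had a median deviation of 0.547 there, with 65 above 0 and 13 below and a median log2 difference of 0.23. The 18 import genes had 0.689, with 15 above 0 and 3 below and a median of 0.38. Among them Timm8a1, an intermembrane space chaperone gene, was at 11.9, 18.2 and 12.2 RPKM in CKO and 11.2, 2.44 and 6.96 RPKM in WT, likewise without overlap. Of the 18 import genes, 4 were higher in CKO without overlap, where 7.51% of all genes were. The 13 tricarboxylic acid cycle genes had a median deviation of 0.171 in CKO library 2, with 11 above 0 and 2 below and a median of 0.14. Cs, the citrate synthase gene and also picked with its values in view, was at 85.9, 85.9 and 72.0 RPKM in CKO and 80.6, 44.6 and 60.6 RPKM in WT. None of the genes on these lists passed the adjusted threshold.

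The cytochrome c gene and the glycolysis list differed in which library was highest. Cycs, the cytochrome c gene, was at 22.8, 36.8 and 21.5 RPKM in CKO and 22.3, 8.40 and 15.4 RPKM in WT, with its lowest value at passage 7. The 16 glycolysis genes had 13 above 0 and 3 below, a median log2 difference of 0.36 and their highest median deviation in CKO library 3 (0.539), not in CKO library 2 (0.156). Hk2, the hexokinase 2 gene, was at 12.7, 9.81 and 31.6 RPKM in CKO and 10.6, 3.00 and 7.65 RPKM in WT. Pgk1, the phosphoglycerate kinase gene, was at 487, 577 and 938 RPKM in CKO and 482, 213.5 and 476 RPKM in WT, without overlap. It was the only 1 of the 16 that was higher without overlap, where 7.51% of all genes were. None of the 16 passed the adjusted threshold.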

How the data were processed

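Gene expression of cultured bone marrow MSCs was measured by RNA-seq in 3 CKO and 3 WT libraries, prepared with a TruSeq stranded mRNA kit per the labels' protocols. The authors deposited 1 value per gene and library, headed only as expression and here taken as RPKM. That unit was inferred, since with fitted library totals and gene lengths the values of 15062 of 15063 genes came out as whole reads (tolerance 0.01 read or a relative 1e-07). Per the submitters' processing notes the genome build was mm9. The aligner, counting, strand use and annotation are unknown here. For a 1 kb gene, 3 reads correspond to 0.145 to 0.173 RPKM, which covers counting error only. WT library 3 has different animal numbers in its description and in its file's header. The combined table held the same values in 6 of 6 columns and was left out.

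Values were tested as log2(RPKM + 1), unnormalized further, in genes that reached an RPKM of 1 in 3 or more libraries, with limma 3.58.1 in R 4.3.3 (genotype as the only term, intensity trend, robust moderation, two-sided, Benjamini-Hochberg, threshold 0.05), and checked on simulated data. Deviations are log2(RPKM + 1) minus the gene's median over the 6 libraries. Differences on this scale understate the change of low genes. The members and gene lists were chosen with earlier results of these data known, so their counts are descriptions without a test. Named members were Mapk7, the 3 tested members with the largest difference and the 2 with the lowest p in each complex, members without overlap, core catalytic subunits and paralogue groups, and up to 3 genes with the lowest p on each other list; any other gene, such as Nrf1, Cs, Col1a1, Ckm and Myog, was picked with its values in view. The alternatives run were leaving out each library, averaging WT libraries 1 and 2, the replicate block, median centring, quantile normalization, a filter at RPKM 5 or none, limma with neither trend nor robust moderation, and a pseudocount of 0.1. Chosen after seeing the data were a voom fit on the recovered reads, removal of the gene length trend (running median over 201 other genes of like length, per library) and leaving out CKO library 2 and WT library 2 together.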

Additional observations from a re-analysis of the deposited data

How the results depend on the processing

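No member passed the adjusted threshold in limma under any of the 17 other settings, while 2 had an unadjusted p under 0.05 in limma and 2 with voom on the recovered reads. The genes whose log2 difference is printed (Mapk7 and members, 17 in all) kept their direction under the 10 settings that left out no library. The number of members without overlap, 1 above and 1 below WT with all libraries, was 2 above and 0 below after median centring (10.6 and 7.17% of all genes), 4 and 0 after quantile normalization (10.3 and 7.62%), 4 and 4 when WT libraries 1 and 2 were averaged (14.8 and 15.4%), and 4 and 0 with the gene length trend removed (10.5 and 10.01%), where 38 members had a difference above 0. Without the filter it was 2 below (9.65% of all genes), the further one being Ndufb4c. With libraries left out, the counts ran between 1 and 15 above (15, or 18.1% of members against 13.3% of all genes, without CKO library 1) and between 1 and 31 below (20 without CKO library 2 and 31, or 37.8% of members against 21.9% of all genes, without WT library 2 and CKO library 2), the members above 0 between 19 and 73, the members lower at an unadjusted p under 0.05 between 0 and 2, and the complex V median between −0.0668 and 0.44. The log2 differences then ran between −0.28 and 0.01 for Sdhc, −0.006 and 0.54 for Ndufs6, −0.0621 and 0.27 for Sdhb, −0.0685 and 0.54 for Ndufs4 and −0.0534 and 0.49 for Uqcrb, changing sign. The cause was not tested.

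Deviations of same-numbered libraries from their group means had correlations of 0.198, 0.014 and −0.019, and the other combinations ran between −0.23 and 0.206. Deviations from a mean of 3 libraries are tied to each other, so this check cannot decide whether the numbers mark pairs. With the replicate block, the median log2 difference of the members was 0.14 and the counts of members were those of the fit without it.

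Depth limits Cox7a1, with 3 reads in CKO library 2, and Cox4i2, with 6. WT libraries 1 and 2 carry 1 animal label but differ in Ddx3y, so averaging them follows the label only. With 3 libraries a group, a difference of the size of the members' median is smaller than the SE of each named gene.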
